A study of Mus musculus with 24 samples.

Results

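Macrophages grown from bone marrow without IL-4 were compared between 2 genotypes of Pparg, the gene of the nuclear receptor PPARγ. The members were chosen by their labels alone: of 24 arrays, 12 came from cultures without IL-4, 6 of them from Pparg fl/- LysCre mice and 6 from Pparg+/- LysCre mice. All mice were C57Bl/6, and all carried LysCre, in which the lysozyme gene drives Cre in cells of the myeloid lineage. Pparg+/- cells had 1 null and 1 intact allele, so the reference group was itself heterozygous and wild-type cells were not part of the comparison. Pparg fl/- cells had 1 null allele and 1 allele flanked by loxP sites, which Cre can remove in myeloid cells. Marrow from the femur of 3 mice of each genotype (mice 1 to 3 were Pparg+/-, mice 4 to 6 Pparg fl/-) was kept for 10 days with M-CSF at 20 ng/ml, which drives macrophage growth. Cultures received vehicle or rosiglitazone (RSG), a drug that activates PPARγ, at 1 µM. Each mouse gave 1 vehicle and 1 RSG culture, so the genotypes were compared over 3 mice against 3 mice, with RSG as a stratum and the mouse as a block.

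PPARγ binds DNA as a heterodimer with the retinoid X receptor and is activated by fatty acid derivatives and by drugs such as RSG. In macrophages it is known for the control of lipid uptake, storage and breakdown, with Fabp4, Cd36 and Angptl4 as well-known targets, and for induction of the liver X receptor LXRα (Nr1h3), which in turn controls cholesterol efflux. It is also known to restrain inflammatory gene expression, and its level is raised by IL-4, which was absent from these cultures.

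Each array gave an expression ratio for every probe set, in which 1 is close to the median of that probe set over the 24 arrays for most of them. Levels of different probe sets therefore cannot be set against each other. Differences are given as log2 of the ratio, Pparg fl/- minus Pparg+/-, with the standard error (SE) from limma. The word called is used for probe sets that differed at least 1.5-fold with an adjusted p below 0.05. The arrays of both genotypes had similar spread (residual SD 0.738 to 0.783 in Pparg+/- and 0.758 to 0.836 in Pparg fl/-), but the median ratio of an array was 0.906 to 0.939 in Pparg+/- and 0.944 to 0.98 in Pparg fl/-, without overlap. The median log2 difference over 17737 genes was 0.12, and 0.055 once array medians were centred.

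The lysozyme gene Lyz2, into which the Cre of LysCre mice is inserted, divided the mice within both genotypes. Its ratio was 16.6 to 21.3 on the 4 arrays of mouse 2 (Pparg+/-) and mouse 4 (Pparg fl/-), and 0.929 to 1.15 on the 8 arrays of mice 1, 3, 5 and 6. The genotype difference of Lyz2 was -0.03 ± 1.29 (adjusted p = 1). The labels name LysCre for all 6 mice and give no number of Cre copies. This gene was singled out after its values were seen, and the counts of calls are given with and without mice 2 and 4. The part of this split in the genotype differences was not tested.

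Across 43349 probe sets, 1 was called between the genotypes without IL-4 (0.00231%), and it measured Il1rn, the secreted antagonist of the interleukin-1 receptor. At an unadjusted p under 0.05 there were 5501 probe sets (12.7%), 4217 higher (9.73%) and 1284 lower (2.96%) in Pparg fl/- cells. With array medians centred, 2071 were higher and 1821 lower, and after quantile normalization 2485 and 1631, so the split between higher and lower moved with the scaling of the arrays. The 6 Pparg fl/- arrays lay entirely above the 6 Pparg+/- arrays for 1164 probe sets (2.69%) and entirely below for 104 (0.24%). With any 1 of the 6 mice left out, or with mice 2 and 4 left out, 0 probe sets were called. With both cultures of a mouse taken as independent, 4 were called, and with the spread taken over all 24 arrays, 29 were.

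**Figure D1:**
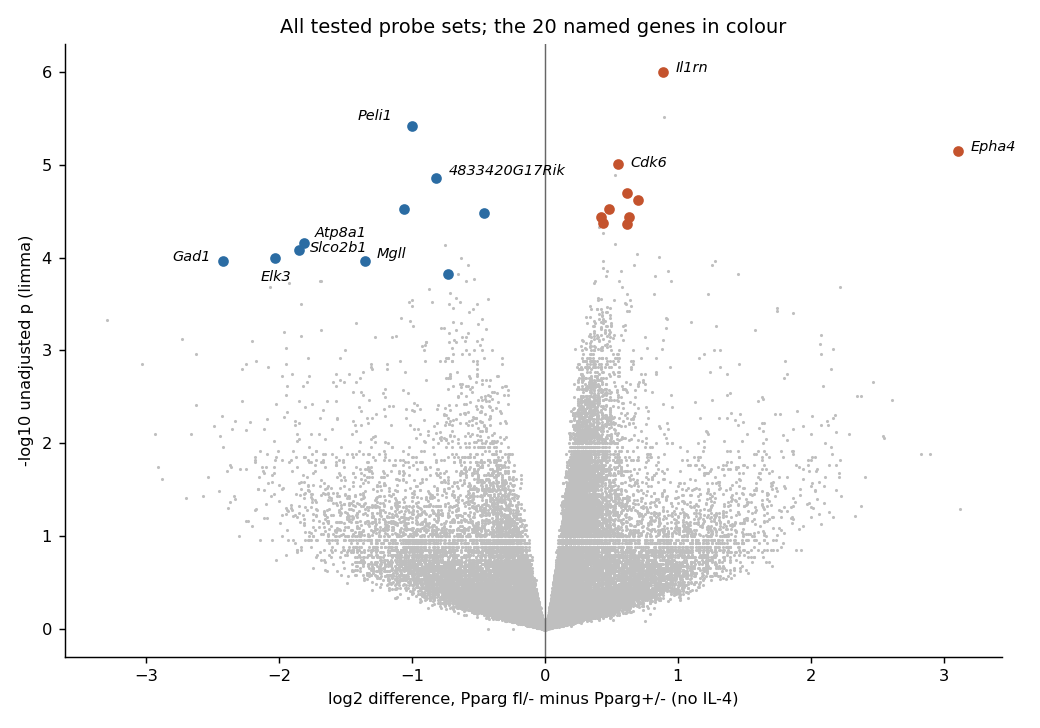
Each grey point is 1 of 43349 probe sets, with the log2 difference between Pparg fl/- and Pparg+/- macrophages without IL-4 on the x axis and -log10 of the unadjusted limma p on the y axis. Orange points are the 10 genes named as higher and blue points the 10 named as lower, and Il1rn (log2 difference 0.89) has the smallest p of them.

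Il1rn was higher in Pparg fl/- cells. Its ratio with vehicle was 1.01, 1.03 and 1.13 in the Pparg+/- cultures against 1.97, 2.1 and 1.95 in the Pparg fl/- cultures. With RSG it was 0.8, 1.06 and 0.931 against 1.58, 1.81 and 1.62. Every Pparg fl/- culture thus lay above every Pparg+/- culture, with and without RSG. The difference was 0.89 ± 0.08 on the log2 scale (1.85-fold, limma adjusted p = 0.045, n = 3 mice per genotype). It was of like size in both strata, 0.92 ± 0.11 with vehicle and 0.85 ± 0.11 with RSG. A second Il1rn probe set differed by 0.90 (adjusted p = 0.055) and the third by 0.68 (adjusted p = 0.24), so all 3 pointed the same way and 1 passed. With array medians centred the difference was 0.82 (adjusted p = 0.067), and without mice 2 and 4 it was 0.95 (adjusted p = 0.31).

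The annotation holds 3 starts of Il1rn on the plus strand of chromosome 2. The windows of the last 2 overlap, and those of the first 2 are shown because this was the gene called, and PPARγ with its partner is known to bind a repeat of the half-site AGGTCA with a single base between. Each line is the window from 250 bases before to 50 after a start, from RefSeq (GRCm38.p6), with AGGTCA or its reverse complement TGACCT in capitals.
Il1rn, chr2:24336610-24336909: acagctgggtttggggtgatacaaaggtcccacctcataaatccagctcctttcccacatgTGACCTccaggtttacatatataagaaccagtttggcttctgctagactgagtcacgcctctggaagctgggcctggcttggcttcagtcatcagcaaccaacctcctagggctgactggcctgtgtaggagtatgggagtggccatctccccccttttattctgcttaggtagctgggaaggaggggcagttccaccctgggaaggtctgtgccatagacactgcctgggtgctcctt
Il1rn, chr2:24345041-24345340: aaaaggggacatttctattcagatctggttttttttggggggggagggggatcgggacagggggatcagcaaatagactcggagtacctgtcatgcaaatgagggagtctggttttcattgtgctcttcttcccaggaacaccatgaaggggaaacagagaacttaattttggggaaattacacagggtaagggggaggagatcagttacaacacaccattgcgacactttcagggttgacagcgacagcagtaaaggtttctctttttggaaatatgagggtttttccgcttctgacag
The first window holds the half-site once, on the minus strand, and the second does not hold it, nor does the third, which is not printed. Of 32851 such windows in the table, 16.3% hold AGGTCA on either strand and 0.0396% hold the full repeat (AGGTCA, any base, AGGTCA). Of the 20 genes named below as highest or lowest, 17 have a window in the table, and of their 31 windows 2 hold AGGTCA and 0 the full repeat. A match of letters is a description and says nothing of binding.

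Apart from Il1rn, the 10 genes named as higher did not pass the threshold (adjusted p up to 0.12) and were taken in order of the unadjusted p, so their differences are descriptions. Epha4, a receptor tyrosine kinase for ephrins, had the widest separation. Its ratio was 0.0956 to 0.19 on the 6 Pparg+/- arrays and 0.803 to 1.72 on the 6 Pparg fl/- arrays, a difference of 3.11 ± 0.36 (8.63-fold, adjusted p = 0.077). The other 3 Epha4 probe sets differed by -1.15 to 0.17, 2 of them below 0, and the arrays overlapped for each.

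Cdk6, a cyclin-dependent kinase of the G1 phase, had ratios of 0.709 to 1.06 in Pparg+/- and 1.23 to 1.33 in Pparg fl/- cultures. The difference was 0.55 ± 0.07 (adjusted p = 0.085), and its other probe sets differed by 0.53 and 0.77, each without overlap of the arrays. Vma21, an assembly factor of the proton pump that acidifies lysosomes, differed by 0.70 ± 0.09 (adjusted p = 0.12). All 4 of its probe sets were higher in Pparg fl/- cells, the others by 0.31 to 0.59. Cd1d1, which presents lipid antigens to natural killer T cells, had ratios of 0.75 to 1.07 against 1.27 to 1.54, with a difference of 0.62 ± 0.08 (adjusted p = 0.11).

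Pmaip1 (Noxa), a pro-apoptotic protein of the BH3-only class, differed by 0.29 with vehicle and by 0.95 with RSG. Its ratio in Pparg+/- cells was 2.44, 2.22 and 2.45 with vehicle but 1.32, 1.43 and 1.48 with RSG, whereas in Pparg fl/- cells it was 2.77, 2.74 and 3.18 with vehicle and 2.74, 2.87 and 2.58 with RSG. The lower RSG values were therefore seen in Pparg+/- cells, but the difference between the strata, 0.67 ± 0.15, did not pass (adjusted p = 0.45). The remaining genes named as higher were Psmb7, a proteasome subunit (0.63), Rcan1, an inhibitor of calcineurin (0.48), Tmem43, a protein of the nuclear envelope (0.44, its other probe set -0.54), and Rasgef1b, an exchange factor of small GTPases (0.42). For each of these 10 genes the arrays of the genotypes did not overlap, as for 2.69% of all probe sets in that direction. They were chosen by the p on these same arrays, so this was largely set by the choice.

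**Figure D2:**
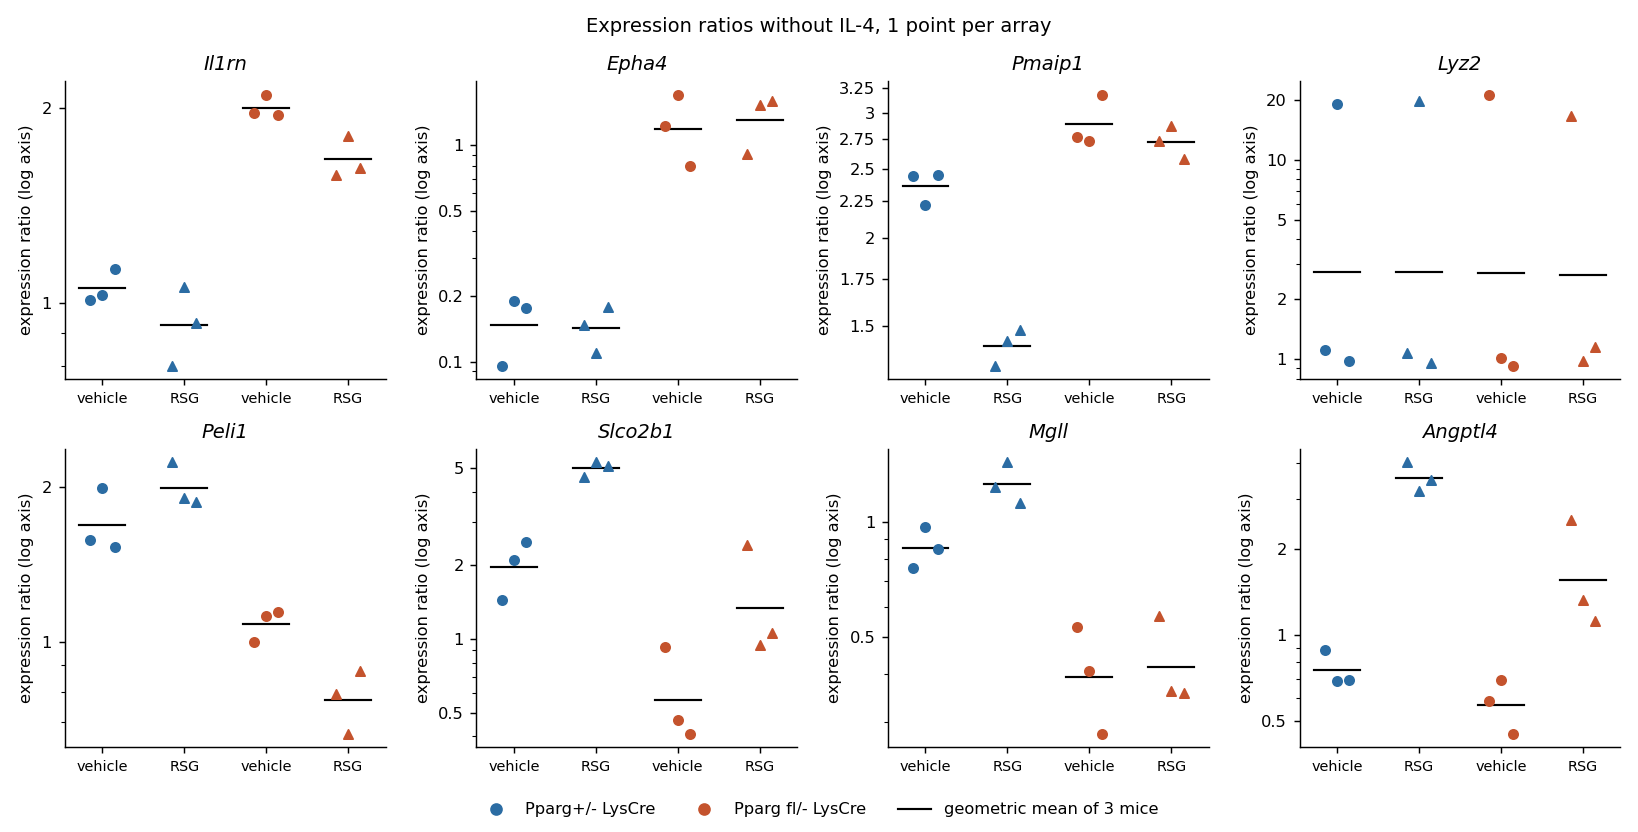
Expression ratios without IL-4 on a log axis, 1 point per array, with vehicle cultures as circles and RSG cultures as triangles, Pparg+/- in blue and Pparg fl/- in orange, and a bar at the geometric mean of 3 mice. For Il1rn, Epha4, Pmaip1, Peli1 and Mgll all 6 Pparg fl/- points lie to 1 side of all 6 Pparg+/- points, for Slco2b1 and Angptl4 the genotypes overlap, and for Lyz2 mouse 2 and mouse 4 stand at 16.6 to 21.3.

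Of the 10 genes named as lower in Pparg fl/- cells, 0 passed (adjusted p = 0.055 to 0.16). Of them 6 had arrays without overlap, as had 0.24% of all probe sets in that direction. The choice by p on these same arrays favours this. Mgll, the monoacylglycerol lipase that releases the last fatty acid of a stored triglyceride, had ratios of 0.759, 0.969 and 0.847 with vehicle and 1.23, 1.43 and 1.12 with RSG in Pparg+/- cells. In Pparg fl/- cells they were 0.529, 0.408 and 0.279 with vehicle and 0.567, 0.361 and 0.357 with RSG. The difference was -1.35 ± 0.22 (2.56-fold lower, adjusted p = 0.16), and all 4 Mgll probe sets were lower, 3 of them at an unadjusted p under 0.05.

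Slco2b1, a transporter of organic anions, differed by -1.85 ± 0.29 (3.60-fold lower, adjusted p = 0.16). In Pparg+/- cells its ratio was 1.44, 2.11 and 2.49 with vehicle and 4.61, 5.27 and 5.1 with RSG. In Pparg fl/- cells it was 0.925, 0.468 and 0.41 with vehicle and 2.42, 0.941 and 1.06 with RSG, so that mouse 4 had the highest value of its genotype in both strata. Without mouse 4 the difference was -2.24 (adjusted p = 0.057). Samd4, an RNA-binding protein, likewise had all 4 probe sets lower, the one named here by -1.06 ± 0.14 (adjusted p = 0.12).

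Peli1, a ubiquitin ligase of Toll-like and interleukin-1 receptor signalling, had ratios of 1.53 to 2.23 in Pparg+/- and 0.663 to 1.14 in Pparg fl/- cultures, a difference of -1.0 ± 0.11 (adjusted p = 0.055). Of its 4 other probe sets, 3 went the other way, and these 4 ranged from -0.75 to 0.19. Similar disagreement was seen for Atp8a1, a phospholipid flippase (-1.81, others -0.1 to 0.16), Elk3, an ETS transcription factor (-2.03, others 0.17 to 0.22), Gad1, which makes the transmitter GABA (-2.42, the other 0.77), and Celf2, a splicing regulator (-0.73, others -0.045 to 0.37). The transcripts 4833420G17Rik (-0.82, others -0.24 to 0.17) and 4931406C07Rik (-0.46, the other -0.32) completed the 10. In all, 17 of the 20 named genes had several probe sets, and in 9 of them every probe set had the same sign.

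The probe set of Pparg itself did not show a loss of signal. Its ratio in Pparg+/- cells was 0.579, 0.51 and 0.558 with vehicle and 0.362, 0.547 and 0.46 with RSG. In Pparg fl/- cells it was 0.578, 0.703 and 1.09 with vehicle and 0.607, 0.901 and 1.12 with RSG, so the groups met at mouse 4. The difference was 0.70 ± 0.24 (adjusted p = 0.30). Where this probe set lies relative to the floxed exons is not given in the sources used here, so it is no check of the deletion. The paper reports a separate check by PCR, in which recombination was nearly complete.

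Among 25 PPARγ target genes tested of 28 listed, 0 were called. At an unadjusted p under 0.05, 5 were lower and 1 was higher, that is 20% and 4%, where 1.83% of all genes were lower and 14.2% higher. The median of the list was -0.04, against 0.12 over all genes. The 5 were Fabp4, Angptl4, Abcg1, Nr1h3 and Aqp7, and the higher one was Etfdh. The list was made with earlier results of these data known and is no independent evidence of its direction.

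Fabp4, the fatty acid carrier of macrophages and fat cells, had ratios of 1.2, 1.3 and 1.06 with vehicle and 1.49, 1.58 and 1.35 with RSG in Pparg+/- cells. In Pparg fl/- cells they were 1, 0.958 and 1.07 with vehicle and 1.16, 1.09 and 1.25 with RSG, overlapping the first group slightly. The difference was -0.28 ± 0.07 (adjusted p = 0.23), and the other 3 probe sets differed by -0.23, -0.27 and -0.52. Angptl4, a secreted inhibitor of lipoprotein lipase, differed most between the genotypes with RSG, where the arrays did not overlap. Its RSG ratios were 4.03, 3.21 and 3.49 in Pparg+/- cells and 2.53, 1.33 and 1.12 in Pparg fl/- cells, the 2.53 being mouse 4, while with vehicle they were 0.884, 0.691 and 0.696 against 0.586, 0.692 and 0.45. The difference was -0.80 ± 0.21 (adjusted p = 0.23), -0.41 with vehicle and -1.20 with RSG, and these 2 values did not differ from each other by the test (adjusted p = 0.74). Cd36, the scavenger receptor for oxidized lipoproteins, differed by -0.12 ± 0.09 (adjusted p = 0.62), and Pdk4, which restrains glucose oxidation, by 0.37 ± 0.40 (adjusted p = 0.75). Scd1, the stearoyl-CoA desaturase, was at 0.509, 0.219 and 0.298 against 0.637, 1.04 and 1.17 with vehicle, and at 0.944, 1 and 0.963 against 1.27, 0.67 and 0.536 with RSG. Its differences had opposite signs, 1.52 with vehicle and -0.33 with RSG, and neither these (adjusted p = 0.45 and 0.80) nor the change between them of -1.85 ± 0.55 (adjusted p = 0.56) passed.

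The receptors and the cholesterol pathway downstream of them gave no call. Nr1h3, the gene of LXRα, had ratios of 0.755, 0.643 and 1.02 with vehicle and 1.19, 1.16 and 1.24 with RSG in Pparg+/- cells, against 0.594, 0.582 and 0.585 with vehicle and 0.765, 0.824 and 0.685 with RSG in Pparg fl/- cells. The genotypes did not overlap within either stratum, and the difference was -0.55 ± 0.13 (adjusted p = 0.21). Of 12 LXR target genes and efflux genes tested, 3 were lower (25%) at an unadjusted p under 0.05 and 0 were higher, where 1.83% of all genes were lower and 14.2% higher. They were Nr1h3, Abcg1, an exporter of cholesterol (-0.73 ± 0.28), and Lpcat3, which remodels phospholipids (-0.21 ± 0.09). Nr1h3 and Abcg1 were already counted among the PPARγ target genes above. Lpcat3 was at 0.12 with vehicle and -0.54 with RSG. Abca1, the other main exporter, was at -0.09 ± 0.31. Ppara, the receptor most active in fatty acid oxidation of the liver, was at 0.81 ± 0.30 (adjusted p = 0.32).

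Lists of lipid metabolism, which share some members with the PPARγ targets, gave no call. Of 24 genes of fatty acid oxidation tested, 3 were higher (12.5%, against 14.2% of all genes) and 1 lower at an unadjusted p under 0.05, with all 24 between -0.28 and 0.32. Etfdh, which passes electrons from fatty acid oxidation to the respiratory chain, had the smallest p of them, with 0.807 to 0.874 in Pparg+/- and 0.956 to 1.08 in Pparg fl/- cultures and a difference of 0.24 ± 0.07 (adjusted p = 0.26). Of 19 genes of fatty acid and triglyceride synthesis, 4 were higher (21.1%) and 0 lower, in a range of -0.16 to 1, among them Acly, which makes cytosolic acetyl-CoA (0.22 ± 0.07, adjusted p = 0.26). With array medians centred, 1 gene of this list was higher (5.26%) and 0 lower. For fatty acid oxidation the counts turned to 1 higher (4.17%) and 3 lower (12.5%). All genes then gave 6.65% higher and 2.69% lower. Cholesterol biosynthesis had 19 genes tested, 0 with an unadjusted p under 0.05 and a median of -0.0037, against 0.12 over all genes.

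Among 30 inflammatory genes tested, Il1rn was called (0.00564% of all genes were), and 6 including it were higher (20%, against 14.2% of all genes) and 0 lower at an unadjusted p under 0.05. With array medians centred 5 were higher (16.7%, against 6.65% of all genes). The list had a median of 0.05, below the 0.12 of all genes. The other 5 were Ccl3 and Ccl4, chemokines that draw monocytes and T cells (0.55 ± 0.15 and 0.78 ± 0.26), Cd14, the co-receptor for lipopolysaccharide (0.38 ± 0.12), Cd86, a co-stimulator of T cells (0.37 ± 0.13), and Tnfaip3, an inhibitor of NF-κB (0.23 ± 0.10), each with an adjusted p of 0.23 to 0.38. Cd14 had ratios of 1.59, 1.69 and 1.54 against 1.88, 1.78 and 1.81 with vehicle, and of 0.992, 1.21 and 1.17 against 1.31, 1.75 and 2.07 with RSG. Its genotypes thus did not overlap within either stratum. None of 29 interferon-stimulated genes had an unadjusted p under 0.05 by limma, and their median was -0.07. That value joins unlike strata: Cxcl10, a chemokine of activated T cells, was at -2.05 with vehicle and 0.44 with RSG, and Ifit1, an antiviral protein, at -1.27 and 0.54. The mean level of the list was 1 to 4.6 on the Pparg+/- vehicle arrays and 0.93 to 1.64 on all others, and it was highest in mouse 1 (2.1, against 0.964 to 1.42 in the other 5 mice). The part of that mouse in these values was not tested.

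Markers of alternative activation, as a list, had a mean level of 0.203 to 0.26 on the Pparg+/- arrays and 0.22 to 0.259 on the Pparg fl/- arrays. Retnla and Arg1, which IL-4 induces in mouse macrophages, were at the floor of 0.01 on all 12 arrays, so no fold is given. Chil3 was at 0.14 to 0.213 in Pparg+/- and 0.104 to 0.155 in Pparg fl/- cultures, with a difference of -0.37 ± 0.31 (adjusted p = 0.65). Mrc1, the mannose receptor, Ccl17, a chemokine of T helper cells, and Stat6, the transcription factor that IL-4 activates, differed by 0.15, 0.073 and 0.36 (adjusted p = 0.56, 0.98 and 0.41). Ccl17 changed sign when mouse 2, 3 or 4 was left out. Of 25 genes of this list tested, 1 was higher at an unadjusted p under 0.05 (4%, against 14.2% of all genes). It was Mgl2, at 0.01 to 0.02 against 0.016 to 0.0311, at or close to the floor of 0.01, so no fold is given. With array medians centred 0 were higher and 2 lower (8%, against 2.69% of all genes), and after quantile normalization 0 and 0. Centring also shifts values at the floor, where 2 members lay on all 12 arrays, so no direction is read from that count.

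**Figure D3:**
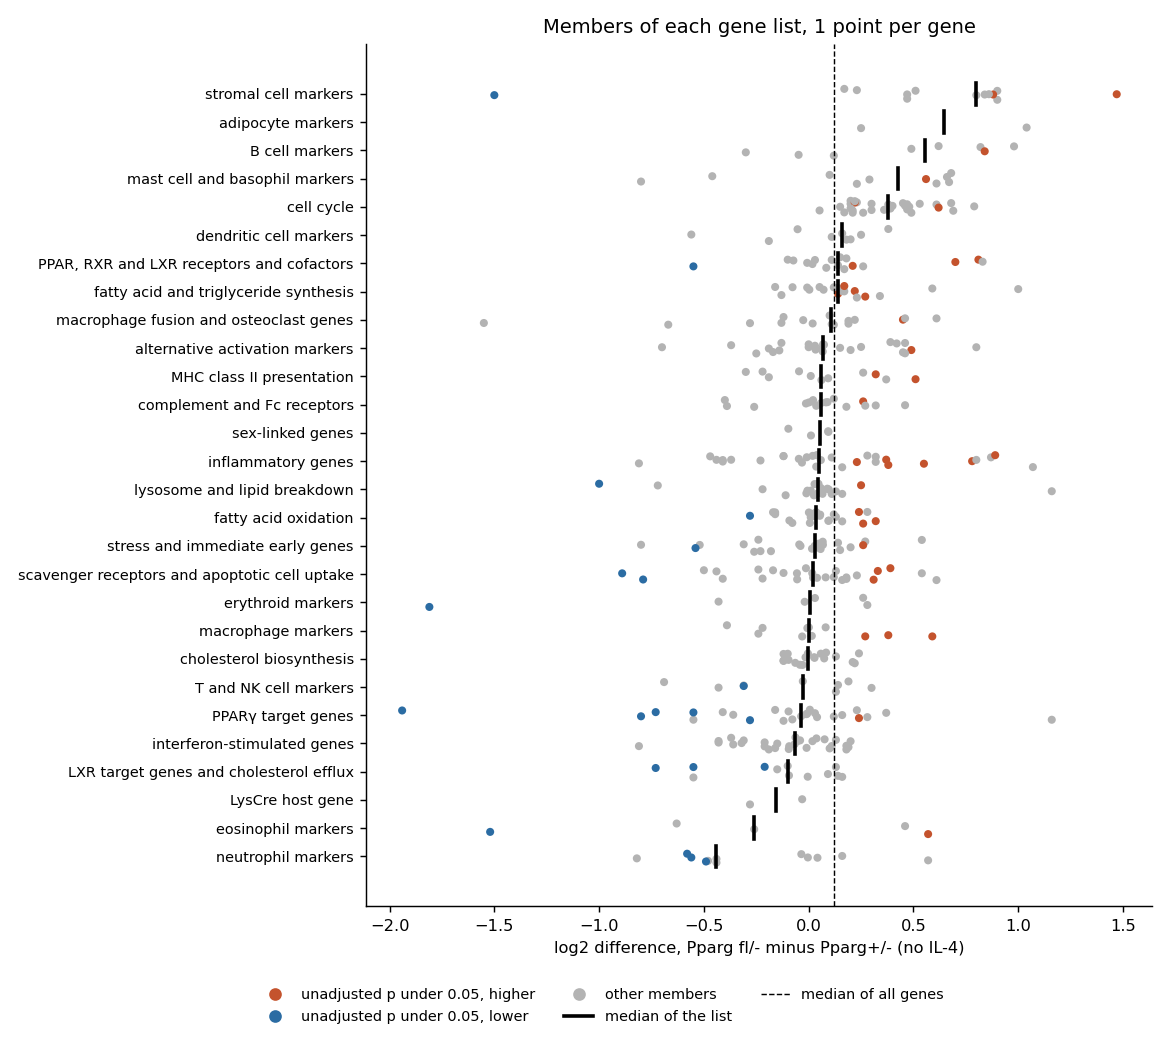
Each point is a gene, at its log2 difference between Pparg fl/- and Pparg+/- macrophages without IL-4, with 1 row per gene list, orange for higher and blue for lower members at an unadjusted p under 0.05. Black bars mark the median of a list and the dashed line the median of all genes at 0.12; the stromal (0.80) and neutrophil (-0.44) lists lie at the ends.

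Receptors of uptake gave no call. Of 27 genes for scavenging and uptake of apoptotic cells, 3 were higher (11.1%) and 2 lower (7.41%) at an unadjusted p under 0.05, where all genes gave 14.2% and 1.83%. Msr1, the class A scavenger receptor, had ratios of 0.675 to 0.862 in Pparg+/- and 0.961 to 1.04 in Pparg fl/- cultures, without overlap, and a difference of 0.39 ± 0.08 (adjusted p = 0.18). Stab1, a scavenger receptor, and Gas6, a ligand of the receptor kinases that bind dying cells, were at 0.33 ± 0.11 and 0.31 ± 0.09. The lower members were Stab2, also a scavenger receptor (-0.89 ± 0.19), and Axl, a receptor of Gas6 (-0.79 ± 0.24).

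All 31 cell cycle genes tested had a difference above 0, from 0.05 to 0.79, with a median of 0.38, where 12270 of all 17737 genes were above 0. Only 2 had an unadjusted p under 0.05 (6.45%, against 14.2% of all genes higher), Ccnd1 at 0.62 ± 0.27 and Pcna at 0.22 ± 0.10. With array medians centred 0 did, where 6.65% of all genes were higher. The level of the list varied by mouse within each genotype. The geometric mean ratio of its members was 2.12, 3.11 and 2.19 in mice 1, 2 and 3 and 4.25, 3.89 and 1.9 in mice 4, 5 and 6. Mouse 6 thus lay below every Pparg+/- mouse. After quantile normalization 26 of the 31 genes were above 0, as were 11185 of all 17737. Of the 31, 0 had an unadjusted p under 0.05, where 8% of all genes were higher.

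Markers of other cells were read beside these results. Of 12 neutrophil markers, 3 (S100a8, S100a9 and Camp) were lower at an unadjusted p under 0.05 (25%, against 1.83% of all genes), 0 were higher, 0 were at the floor on all arrays, and the median was -0.44. With array medians centred, and likewise after quantile normalization, 6 were lower (50%), against 2.69% and 2.33% of all genes. The mean level of the list was 1.7 to 2.62 on the Pparg+/- arrays and 1.29 to 2.16 on the Pparg fl/- arrays, so it overlapped. Of 13 stromal markers, 12 were above 0, as were 12270 of all 17737 genes, and the median was 0.80. At an unadjusted p under 0.05, 2 were higher (15.4%, against 14.2% of all genes), Cxcl12 at 1.47 ± 0.55 and Sparc at 0.88 ± 0.36. The mean level of this list was 1.05 to 1.47 on the Pparg+/- arrays against 1.13 to 2.94 on the Pparg fl/- arrays. The strata differed in which members were high: Col3a1, a collagen, was at 2 with vehicle and -0.2 with RSG, and Col1a1 at 1.01 and -0.072, whereas Sparc, a matrix protein, was at -0.26 and 2.02. The 13th, Vcam1, an adhesion molecule that macrophages can also express, went the other way at -1.50 ± 0.32 (adjusted p = 0.19). Its RSG ratios were 5.02, 7.33 and 7.41 in Pparg+/- cells and 3.93, 1.52 and 1.17 in Pparg fl/- cells, again with mouse 4 nearest to the other genotype, and without that mouse it was at -1.94 (adjusted p = 0.069). Whether cells of these types took part in the differences above was not tested, and fewer cells of a type and less RNA per cell cannot be told apart in such samples.

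The macrophage markers gave no call. Of 11 tested, 3 (Cd14, Cx3cr1 and Spi1) were higher (27.3%, against 14.2% of all genes) and 0 lower at an unadjusted p under 0.05. With array medians centred, 2 were higher (18.2%, against 6.65% of all genes) and 1 lower (9.09%, against 2.69%). Of the 11, 0 were at the floor on all arrays, and the median was 0.00091, against 0.12 over all genes. The mean level of the macrophage list was 1.11 to 1.59 on the Pparg+/- arrays and 1.17 to 1.72 on the Pparg fl/- arrays. Lyz2 is a member of this list, and the level of the whole list was 1.57 and 1.64 in mice 2 and 4. In mice 1, 3, 5 and 6 the level of the list was 1.22 to 1.27. Lists of B cell, mast cell and eosinophil markers each had 1 member higher at that p (Pax5, Kit and Siglecf), or 10% to 20% against 14.2% of all genes. Lists of T and NK cell, eosinophil and erythroid markers each had 1 lower (Prf1, Prg2 and Car1), or 11.1% to 20% against 1.83%. The adjusted p-values of these members were 0.30 to 0.38. The genes around Pparg on chromosome 6 gave no call. Of 100 measured genes, 50 on each side, 0 were called, and 15% were higher and 2% lower at an unadjusted p under 0.05, where all genes gave 14.2% and 1.83%. Among them was Cxcl12, 1 of the stromal markers above.

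The strata were then read apart. With vehicle 1 probe set was called (0.00231%) and 4237 had an unadjusted p under 0.05 (9.77%). With RSG 0 were called (0%), where the lowest adjusted p was 0.083 and 4441 probe sets (10.2%) had an unadjusted p under 0.05. All 20 named genes had the same sign in both strata. They were chosen by the p of the mean difference over these same strata, so this agreement was largely set by the choice. The difference between the strata was itself called for 1 probe set (0.00231%, with 6.8% at an unadjusted p under 0.05), that of F13b, a subunit of coagulation factor XIII. Its ratio with vehicle was 1.41, 1.25 and 1.33 in Pparg+/- and 0.117, 0.137 and 0.0951 in Pparg fl/- cells. With RSG the order turned, with 0.752, 0.43 and 1.08 against 1.68, 2.22 and 1.84. The difference was -3.53 ± 0.32 with vehicle (adjusted p = 0.038) and 1.43 ± 0.32 with RSG (adjusted p = 0.23), and between them 4.96 ± 0.42 (adjusted p = 0.018).

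F13b was followed by 4 genes with adjusted p-values of 0.12 to 0.24 in that test. Ccr10, a chemokine receptor (3.94 ± 0.48), Fchsd2, a regulator of membrane uptake (6.28 ± 0.91), and Klk1b8, a kallikrein (-4.04 ± 0.50), also had opposite signs in the strata. Gp5, a platelet glycoprotein, was at 0.143, 0.223 and 0.173 in Pparg+/- cells with RSG but at 0.685 to 1.2 in the other 3 groups, and the strata differed by 2.45 ± 0.35. The F13b call was lost without each of mice 1, 2, 3, 5 and 6 and with the spread of all 24 arrays (adjusted p = 0.48).

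The same 6 mice also gave cultures with IL-4, so the 2 states share their mice. With IL-4, 377 probe sets were called (0.87%), 196 higher (0.452%) and 181 lower (0.418%), from a fit of all 24 arrays. The same fit called 29 without IL-4. Of the 20 genes named without IL-4, 18 had the same sign with IL-4 and 5 were called there. The share of all probe sets with the same sign is not given here. The median log2 difference over all probe sets was above 0 in both states (0.086 without and 0.083 with IL-4). Like signs in the same mice are thus no independent support. Slco2b1 was at -1.69 ± 0.34 with IL-4 (adjusted p = 0.019), Mgll at -1.03 ± 0.22 (adjusted p = 0.029), Samd4 at -0.94 ± 0.19 (adjusted p = 0.020) Peli1 at -0.79 ± 0.17 (adjusted p = 0.027) and Cdk6 at 0.64 ± 0.09 (adjusted p = 0.004). Fabp4 (-0.77 ± 0.16, adjusted p = 0.024), Angptl4 (-1.62 ± 0.36, adjusted p = 0.030) and Pparg (0.94 ± 0.18, adjusted p = 0.015) were called with IL-4 and not without it, but for these 3 the test of the change between the states gave adjusted p-values of 0.87, 0.93 and 0.97.

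**Figure D4:**
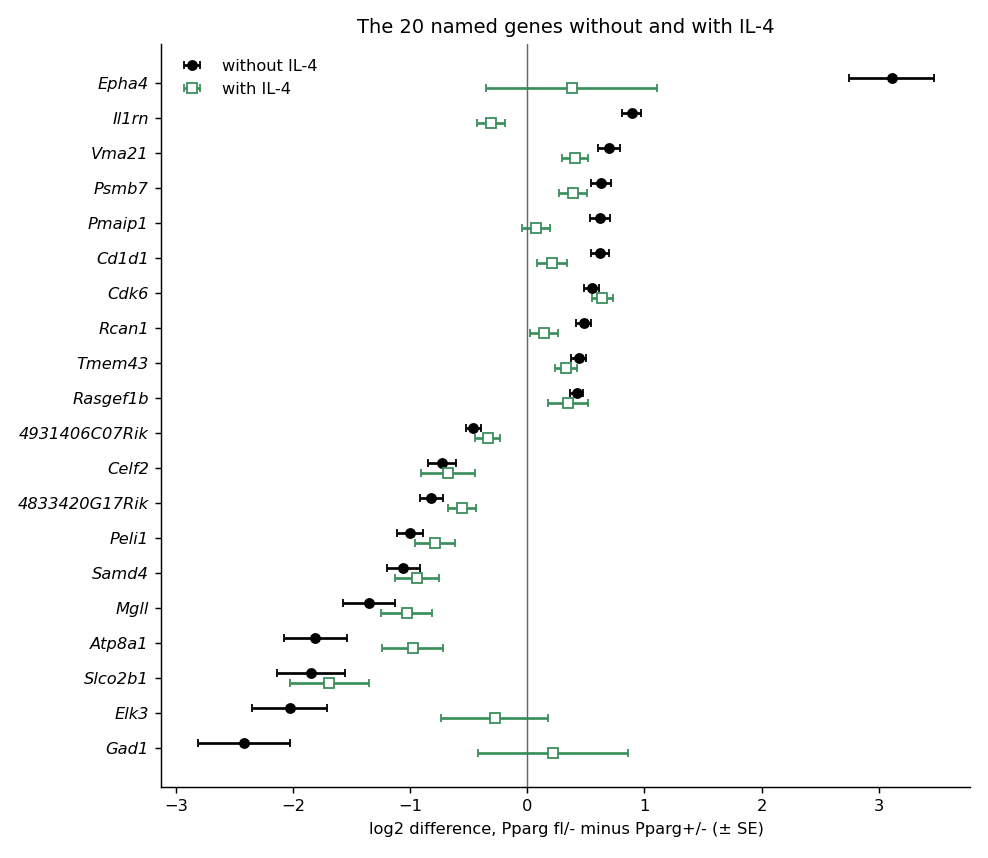
Log2 differences between Pparg fl/- and Pparg+/- macrophages for the 20 named genes, without IL-4 (filled circles) and with IL-4 (open squares), with bars of 1 SE. Il1rn lies at 0.89 without and -0.31 with IL-4, while Slco2b1, Mgll, Samd4 and Cdk6 lie on the same side in both.

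The genotype difference depended on IL-4 by its own test for 4 probe sets (0.00923%, with 5.66% at an unadjusted p under 0.05), and 2 of these measured Il1rn. With IL-4 the Il1rn ratio was 0.773, 0.728 and 0.795 with vehicle and 1.01, 1.12 and 0.99 with RSG in Pparg+/- cells, against 0.703, 0.856 and 0.457 with vehicle and 0.898, 0.874 and 0.635 with RSG in Pparg fl/- cells. The genotypes overlapped there, and the difference was -0.31 ± 0.12 (adjusted p = 0.23). The change between the states was -1.20 ± 0.17 (adjusted p = 0.018), and -1.37 ± 0.18 (adjusted p = 0.016) for the second Il1rn probe set. By the same test 0 probe sets were called without any 1 of mice 1, 2, 3 and 4 and without mice 2 and 4 together, 5 without mouse 5 and 3 without mouse 6.

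Arhgap24, which switches off small GTPases of the cytoskeleton, had ratios of 1.35 to 2.02 in Pparg+/- and 2.13 to 2.85 in Pparg fl/- cultures without IL-4, without overlap (0.54 ± 0.12, adjusted p = 0.19). With IL-4 the order was reversed (-0.78 ± 0.14, adjusted p = 0.013), at 0.501 to 0.646 against 0.224 to 0.395, and the change between the states was -1.32 ± 0.20 (adjusted p = 0.024). Its other probe set was at 0.13 without and 1.52 with IL-4 (adjusted p = 0.90 and 0.076), so it did not turn. Dach1, a transcriptional repressor (-1.66 ± 0.29), Cela3b, an elastase (-3.44 ± 0.61), and Gp5 (-1.32 ± 0.24) were next and did not pass (adjusted p = 0.15 to 0.16).

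**Figure D5:**
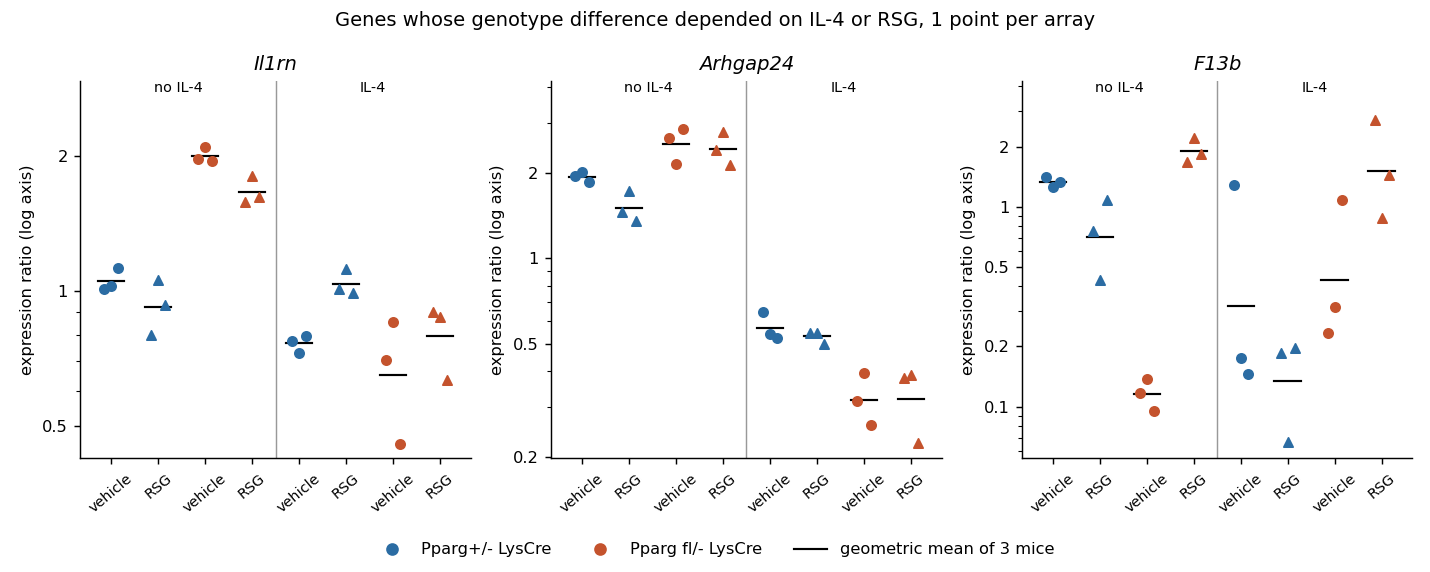
Expression ratios on a log axis for Il1rn, Arhgap24 and F13b, 1 point per array, in the 4 groups without IL-4 (left of the grey line) and the 4 with IL-4 (right), Pparg+/- in blue and Pparg fl/- in orange, with a bar at the geometric mean of 3 mice. Without IL-4 the orange Il1rn and Arhgap24 points lie above the blue ones, and for F13b the order of the genotypes differs between vehicle and RSG.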

How the data were processed

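Each of 24 macrophage cultures was measured on 1 Affymetrix mouse expression array. The deposited ratios were made by the authors with GC-RMA in GeneSpring 7.3 (GCOS is also named), dividing each signal by its array's 50th percentile and then by its probe set's median. A further division by the vehicle control, described in the methods, is not seen in the values, and 17.2% of probe sets have a median ratio under 0.95. Arrays give no read depth, and their number limits the precision. No 2 of the 276 pairs of arrays were identical.

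Ratios were floored at 0.01 and taken to log2. Probe sets at or above the array median on at least 3 arrays were kept (43349, with 1688 removed). Genotypes were fitted with limma 3.58.1 in R 4.3.3 on 12 arrays (4 group means, trend), with the mouse as a random block (consensus correlation 0.159), because each mouse gave 2 cultures. Cultures were assigned to a mouse by the number that opens each sample title. The correlation of deviations between both cultures of a mouse was 0.000665 to 0.0353. For mouse 4 (0.000665) it lay below the highest with another mouse of its genotype (0.00899), and for each of the other mice above it. The comparison with IL-4 used 24 arrays. Benjamini-Hochberg adjustment ran over all probe sets. On simulated data, 27% of 100 probe sets changed 2-fold and 58% of 100 changed 4-fold were recovered. There were 9 false calls among the unchanged rest of the 43349 probe sets. The simulated noise was normal, with the same mouse correlation for all probe sets. It held no shift of array medians between the genotypes, whereas the real medians did not overlap. With 3 mice against 3, the smallest exact permutation p is 0.1, so none was used.

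Named were the genes of the study, the 10 called genes or, failing calls, those of smallest unadjusted p in each direction, the leading member of each gene list, and the 5 genes of smallest p in each interaction. Other genes were named after their values were seen. Members and lists were chosen with earlier results of these data known. Alternatives were other scalings, filters, floors, variance models and tests, no replicate block, and each mouse left out. Leaving out mice 2 and 4 was chosen after seeing the data. The number of array columns not used was 0.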

Additional observations from a re-analysis of the deposited data

Results flagged for a closer look

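For 5 probe sets the genotype difference itself differed between conditions by limma's interaction test. For F13b it differed between RSG and vehicle by 4.96 (adjusted p = 0.018). Between IL-4 and no IL-4 it differed by -1.2 (adjusted p = 0.018) and -1.37 (adjusted p = 0.016) for 2 probe sets of Il1rn, and by -1.32 (adjusted p = 0.024) for Arhgap24. The fifth probe set has no gene symbol in the annotation used here, and its difference was -1.2 without IL-4 (adjusted p = 0.34) and 3.02 with IL-4 (adjusted p = 0.004), a change of 4.22 (adjusted p = 0.016). With mice 2 and 4 left out, 0 probe sets were called in either interaction.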

How the results depend on the processing

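The count of 1 probe set called without IL-4 became 0 with array medians centred, after quantile normalization, on mouse means with limma and with mice 2 and 4 left out. It was 1 by the methods' t-test on mouse means, but for Atf7 (-1.85, adjusted p = 0.043) and not Il1rn. It was 2 without a mean-variance trend, for Clec4b1 and Epha4 and again not Il1rn, 4 with no replicate block, 29 with the spread over all 24 arrays and 99 by the methods' t-test (52 higher, 47 lower), which takes both cultures of a mouse as independent. It ranged from 0 to 0 when 1 mouse was left out, with 3381 to 7002 probe sets at an unadjusted p under 0.05. With vehicle the 1 call became 0 after quantile normalization, over all 24 arrays, by the t-test and without mice 2 and 4, and ranged from 0 to 2 without 1 mouse. With RSG the 0 calls became 1 without a trend and 2 over all 24 arrays, and ranged from 0 to 1. The interaction with RSG went from 1 to 0 by the t-test and without mice 2 and 4, and ranged from 0 to 8, the 8 being without mouse 4. The interaction with IL-4 went from 4 to 9 without a trend and to 0 without mice 2 and 4, and ranged from 0 to 5. The 1 called member of the gene lists became 0 with medians centred, without a trend, after quantile normalization, on mouse means by either test and without mice 2 and 4, became 2 over all 24 arrays and by the t-test, and ranged from 0 to 0. Of 100 neighbours of Pparg, 1 was called by the t-test and 0 otherwise. Pdk4 ranged from -0.098 to 0.66, Ccl17 from -0.3 to 0.69 (-0.45 without mice 2 and 4) and Lyz1 from -0.52 to 0.13 when 1 mouse was left out, none of them past the threshold. The causes were not tested. Floors, filters and the other settings left these counts within 1.5 times. The replicate block changed no other count of calls.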

Other observations

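By the methods' t-test with Benjamini-Hochberg adjustment, 3 genes besides Il1rn and Mgll had several probe sets among the 99 called, and they were picked out after their values were seen. Malat1, a long non-coding RNA of the nucleus, was lower in Pparg fl/- cells by all of its 3 called probe sets (-0.91, -0.70 and -1.08). Plau, the urokinase plasminogen activator, was higher by 0.67 and 0.66, and Rapgef5, an exchange factor of Rap GTPases, by 0.86 and 0.83. That test takes both cultures of a mouse as independent, and limma with the mouse as a block called none of these probe sets.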
